A study of Homo sapiens with 8 samples.

Results

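AFAP1-AS1, a non-coding transcript made from the strand opposite to the actin-binding protein gene AFAP1, was overexpressed in A549 cells and compared with a vector control. A549 is a widely used epithelial line from a human lung adenocarcinoma. The overexpression group (OE, genotype given as overexpression of AFAP1-AS1) and the vector group had 2 libraries each, 4 of the 8 libraries in the series. A knockdown group and its negative control, labelled ASO and ASONC, also had 2 libraries each of the same line. They entered the fit only to estimate the spread between replicates, and they counted in the minimum mean level, taken over all 8 libraries. The series title names AXIN2 splicing, SR splicing factors and drug resistance as its subject. The comparison covers every gene with a mean of at least 1 FPKM (fragments counted per length of transcript and per size of library) over the 8 libraries, which was 10648 of the 17056 genes in the table. The sources used here do not give the construct, its delivery, the time after it, or whether the cells were a clone or a pool. They also do not say whether replicates were separate cultures. The p-values therefore cover the spread of the libraries at hand, and that spread may be technical only.

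The 4 libraries held 35517242 and 36953674 recovered reads in OE cells and 33155584 and 36203157 in vector cells. The knockdown control libraries stood apart, with 1435 and 1341 genes at 0, against 2205 to 2327 in each of the other 6. A fit of the OE and vector libraries alone called 8 genes, 7 higher and 1 lower. Of these, 6 were among the 7 called with all 8 libraries. Replicates correlated across genes with r = 0.9975 in OE cells and 0.9973 in vector cells. Epithelial character was partly visible: KRT8 stood at 1181 and 1178 FPKM in OE cells and 1093 and 1135 FPKM in vector cells, while EPCAM was below the filter. Lung markers did not reach the filter: the surfactant genes SFTPA1 and SFTPC were at 0 in all 4 libraries, and SFTPB, NKX2-1 and NAPSA were low. None of the 12 fibroblast and endothelial markers reached the filter, with summed levels of 1.44 to 1.64 FPKM in OE cells and 1.55 to 1.94 FPKM in vector cells. Of the 8 immune markers, 3 were at 0 in all 4 libraries, PTPRC and LYZ among them, and CD14, CD68 and ITGAM reached the filter, with summed levels over the list of 53.5 to 54.8 FPKM in OE cells and 52.8 to 54.1 FPKM in vector cells. CD14 measured 2.48 and 2.70 FPKM in OE cells and 1.57 and 1.90 FPKM in vector cells (log2 difference 0.39 ± 0.09, adjusted p = 0.201). ITGAM went the other way (-0.18 ± 0.09, adjusted p = 0.781), and CD68 had 0.01 ± 0.04. The fibroblast and endothelial list was split. COL3A1 had 45 and 29 reads in OE cells and 1 read in each vector library. COL1A2 had 23 and 21 reads in OE cells and 0 in both vector libraries. PDGFRA was also higher, with 10 reads in each OE library and 1 and 4 in vector cells. On the other side, PDGFRB had 0 and 1 reads in OE cells and 9 and 10 in vector cells. VWF measured 0.498 and 0.566 FPKM in OE cells and 0.846 and 0.771 FPKM in vector cells. TEK was lower in FPKM too, with 7 reads or fewer in every library, and the remaining members overlapped. The part of these markers in any result was not tested. The level of AFAP1-AS1 is not analysed here and could not serve as a check of the labels.

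As background, type I and type III interferons are secreted by cells that sense foreign or misplaced nucleic acid. They bind surface receptors, whose JAK kinases activate STAT factors, and these join IRF9 to form a complex that binds the interferon-stimulated response element (ISRE) near the start of target genes. The proteins made from those targets, here called interferon effectors, degrade or modify RNA, block translation, tag proteins with ISG15 or present antigen. Epithelial cells such as those of the lung use the pathway as a first defence against viruses.

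Of the 7 genes that rose in OE cells, 6 were interferon effectors. With limma on log2(FPKM + 1), 7 genes of 10648 were called at an adjusted p below 0.05, a share of 0.0657%, and all 7 were higher in OE cells. They were IFI27, IFI6, IFIT2, IFIT3, IFIT1, ISG15 and the ribosomal protein gene RPS28. No gene was called lower, a share of 0%, while 288 genes were lower at an unadjusted p below 0.05 (2.7%) and 450 were higher (4.23%). The number of calls changed with the fit. It was 14 (12 higher and 2 lower) with a robust variance estimate and 27 (22 higher and 5 lower) with voom on the recovered reads. It was 0 when all 17056 genes were tested without a filter. In some other fits 1 gene was called lower, among them a minimum mean of 5 FPKM and the OE and vector libraries alone.

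The promoters of the called interferon genes are shown first, because the ISRE is the element through which the pathway is known to act. The letters GAAANNGAAA were searched on both strands in windows from 250 bases before to 50 bases after each start in RefSeq (GRCh38.p14). In the sequences, written 5′ to 3′ on the strand of the gene and ending before the start site, capitals mark each match; a match on the other strand reads TTTCNNTTTC.
IFI27: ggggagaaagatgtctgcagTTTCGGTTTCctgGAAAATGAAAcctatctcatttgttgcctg
IFI6: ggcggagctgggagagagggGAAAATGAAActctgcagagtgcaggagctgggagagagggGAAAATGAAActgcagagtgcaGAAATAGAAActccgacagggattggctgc
IFIT1: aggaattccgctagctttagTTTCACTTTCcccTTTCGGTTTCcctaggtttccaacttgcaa
IFIT3: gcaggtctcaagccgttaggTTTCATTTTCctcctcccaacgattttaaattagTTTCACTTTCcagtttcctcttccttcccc
ISG15: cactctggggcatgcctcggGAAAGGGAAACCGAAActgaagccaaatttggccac
The windows lie at chr14:94110608-94110670 (plus strand) for IFI27, chr1:27672256-27672368 (minus strand) for IFI6, chr10:89392487-89392549 (plus) for IFIT1, chr10:89327821-89327904 (plus) for IFIT3 and chr1:1013364-1013419 (plus) for ISG15. IFI6 held 3 matches and the other four 2 each. The 2 matches of ISG15 overlap each other, so that they print as a single run of capitals. IFIT2 had no entry in the promoter table, and the RPS28 window held no match. Thus 5 of the 6 called genes with a promoter held the letters (83.3%), against 227 of the 8702 tested genes with a promoter (2.61%). A match describes the letters only and is not evidence of binding.

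**Figure D1:**
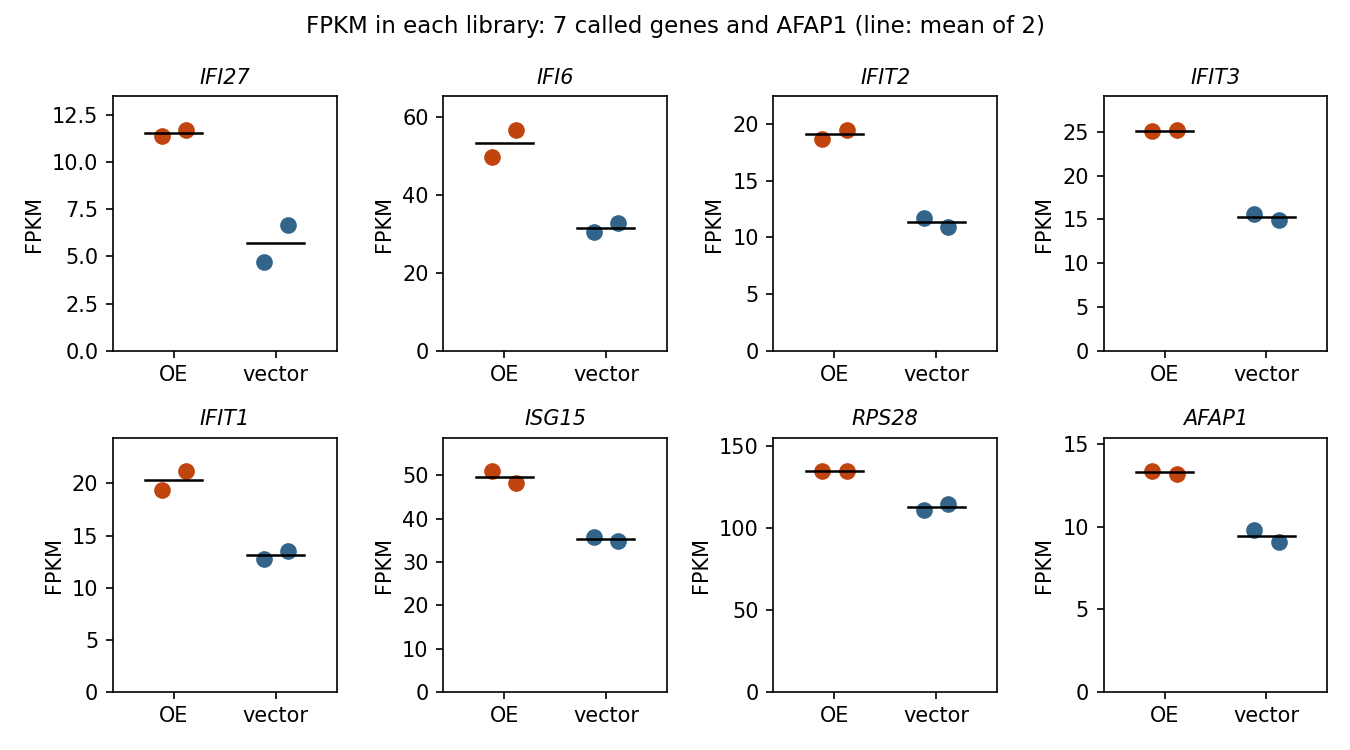
FPKM (vertical axis, from 0) in each OE and vector library for the 7 called genes and AFAP1, with points for libraries and a line for the mean of 2. In all 8 panels both OE libraries lie above both vector libraries, and the IFI27 vector libraries, at 4.69 and 6.69 FPKM, are farthest apart for their level.

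IFI27, which encodes a small interferon-induced membrane protein, had the largest called difference. It measured 11.4 and 11.7 FPKM in OE cells, against 4.69 and 6.69 FPKM in vector cells. The vector libraries differed from each other more than the OE libraries did, and the groups did not overlap. The log2 difference was 0.92 ± 0.12 (SE), with an adjusted p of 0.00896, and it passed no longer without OE replicate 1 (adjusted p = 0.0622) or OE replicate 2 (adjusted p = 0.0852).

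IFI6, a related membrane protein known to restrain cell death and flavivirus replication, measured 49.8 and 56.9 FPKM in OE cells and 30.4 and 32.9 FPKM in vector cells. Its log2 difference was 0.73 ± 0.06, with an adjusted p of 0.000522. ISG15, the ubiquitin-like protein that is attached to other proteins in interferon-treated cells, measured 51.0 and 48.3 FPKM in OE cells and 35.8 and 34.9 FPKM in vector cells. Its log2 difference was smaller, 0.48 ± 0.05, with an adjusted p of 0.000875. For both genes the gap between groups exceeded the gap between replicates, and both passed when any single library of either group was left out.

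The IFIT proteins bind foreign RNA and the translation machinery, and act as complexes of IFIT1, IFIT2 and IFIT3. IFIT3 measured 25.05 and 25.3 FPKM in OE cells and 15.6 and 14.9 FPKM in vector cells, a log2 difference of 0.69 ± 0.06 (adjusted p = 0.000522). IFIT2 measured 18.7 and 19.5 FPKM in OE cells and 11.7 and 10.9 FPKM in vector cells, a log2 difference of 0.71 ± 0.07 (adjusted p = 0.000812). The 2 genes moved by similar amounts, and the libraries of each group lay close together. IFIT1 measured 19.4 and 21.2 FPKM in OE cells and 12.7 and 13.6 FPKM in vector cells, a log2 difference of 0.59 ± 0.07 (adjusted p = 0.00662). It no longer passed without OE replicate 2 (adjusted p = 0.0852) or vector replicate 1 (adjusted p = 0.0837). IFIT5 did not pass, at 12.9 and 12.98 FPKM in OE cells against 11.3 and 11.3 FPKM in vector cells and a log2 difference of 0.18 ± 0.06 (adjusted p = 0.557).

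RPS28, a protein of the small ribosomal subunit, was the only called gene outside the interferon lists. It measured 134.9 and 134.7 FPKM in OE cells and 111.0 and 115.0 FPKM in vector cells, a log2 difference of 0.25 ± 0.04 (adjusted p = 0.0476). The call was lost when any single OE or vector library was left out, with adjusted p between 0.0799 and 0.286. RPS28 has processed copies elsewhere in the genome, so its count may depend on how shared reads were assigned.

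Beyond the calls, the interferon effectors were shifted as a group. The 7 effector lists together named 71 genes in the table, of which 54 were tested. Of those 54, 53 were higher in OE cells (98.1%), against 5444 of 10648 genes in all (51.1%). Their median log2 difference was 0.19, and that of all genes was 0.002, with quartiles at -0.047 and 0.053. In 44 of the 54, both OE libraries lay above both vector libraries, and in none did both lie below. Over all genes the first happened in 1938 (18.2%) and the second in 1797 (16.9%). Of the 54, 6 were called. The lists were chosen with earlier results of these data known, so these shares describe the lists and are not an independent test. The mean log2(FPKM + 1) of the 54 was 3.63 and 3.67 in OE cells and 3.37 and 3.40 in vector cells. In bulk RNA, a larger share of cells with such a response and more RNA per responding cell cannot be told apart.

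**Figure D2:**
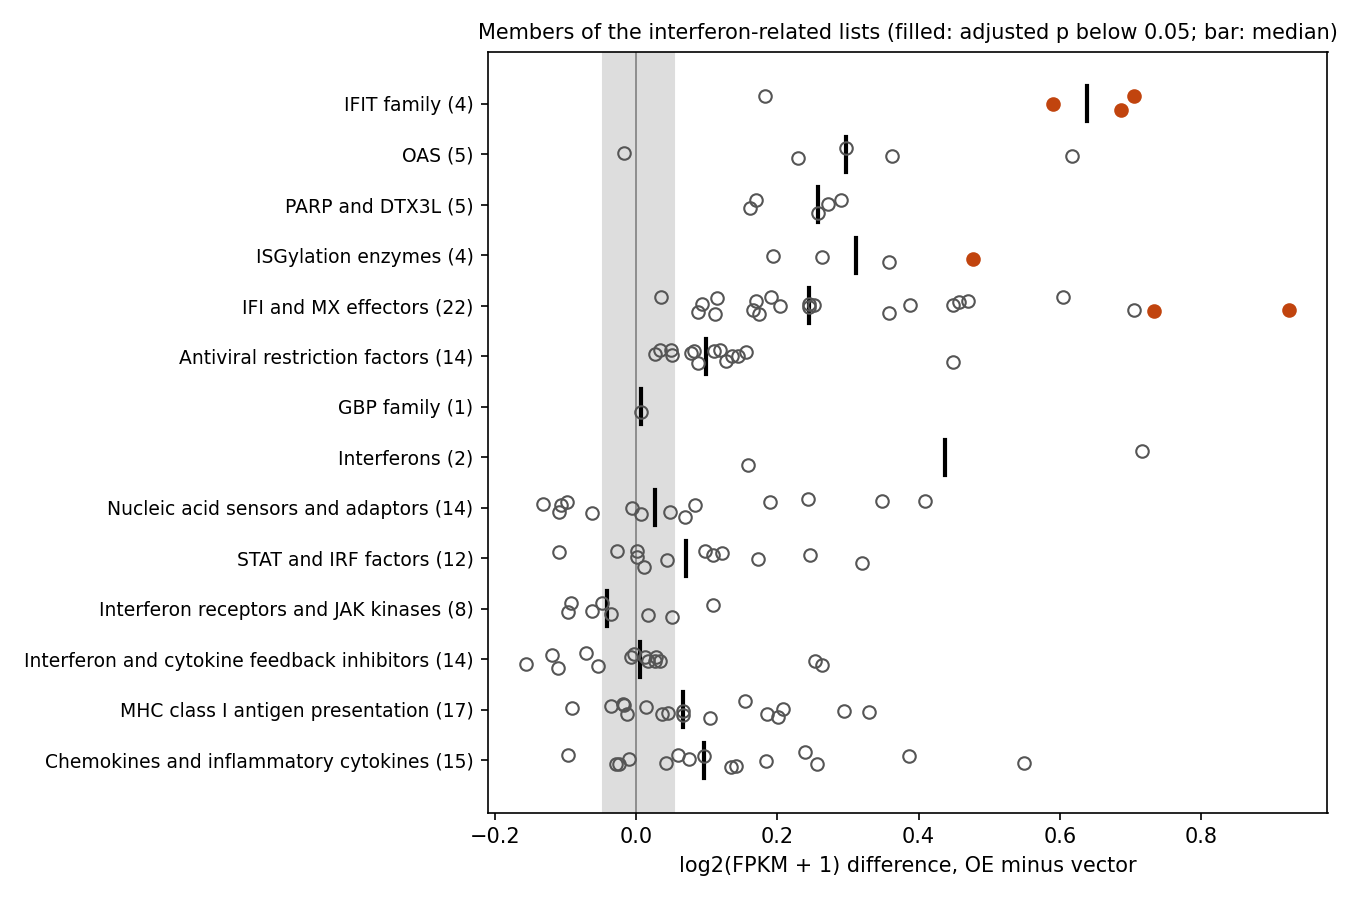
Log2(FPKM + 1) difference, OE minus vector (horizontal axis), of each tested member of 14 interferon-related and inflammatory lists, with the number tested in brackets. Filled points passed the test, black bars are list medians, and the grey band spans the quartiles of all genes, -0.047 to 0.053; the effector lists at the top lie mostly right of the band, while receptors and feedback inhibitors lie around it.

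The oligoadenylate synthetases make a second messenger that switches on RNA cleavage. None of the 5 tested members of that list passed, though 4 were higher and the list median was 0.30. OAS3 measured 49.6 and 49.2 FPKM in OE cells and 41.8 and 38.3 FPKM in vector cells (log2 difference 0.30 ± 0.05, adjusted p = 0.0572). OASL, which has the fold of the family without its enzyme activity, measured 10.6 and 13.1 FPKM in OE cells and 6.65 and 8.07 FPKM in vector cells (log2 difference 0.62 ± 0.12, adjusted p = 0.128). OAS2 was low, at 1.72 and 1.84 FPKM in OE cells and 1.13 and 1.19 FPKM in vector cells.

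The largest effector list, with the IFI, MX and related genes, had all 22 tested members higher and a median of 0.24. Without overlap, 18 were higher, against 18.2% over all genes. IFI44 measured 3.13 and 3.50 FPKM in OE cells and 1.62 and 2.06 FPKM in vector cells (log2 difference 0.60 ± 0.10, adjusted p = 0.0588). HELZ2, a helicase co-activator, measured 5.61 and 5.80 FPKM in OE cells and 3.99 and 3.70 FPKM in vector cells (log2 difference 0.47 ± 0.08, adjusted p = 0.0588). Both passed in some of the alternative fits only. MX1, a GTPase that traps viral nucleocapsids, measured 5.12 and 4.94 FPKM in OE cells and 3.78 and 3.04 FPKM in vector cells (adjusted p = 0.141). RSAD2, also called viperin, which makes a chain-terminating nucleotide, and its genomic neighbour CMPK2 had log2 differences of 0.39 ± 0.09 and 0.45 ± 0.11, each without overlap between groups. IFITM1, which blocks fusion of virus and cell membranes, reached 0.71 ± 0.18 with OE libraries that differed from each other, at 4.48 and 7.21 FPKM, against 2.66 and 3.62 FPKM in vector cells (adjusted p = 0.333). IFITM1 is related in sequence to IFITM2 and IFITM3, whose log2 differences were 0.09 ± 0.06 and 0.19 ± 0.13. How any reads shared among them were assigned is not known. At the low end of the list, IFI30, a lysosomal thiol reductase, overlapped between groups (0.04 ± 0.08).

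The ISG15 conjugation genes were higher in all 4 tested members. UBA7, of the same list but below the filter, overlapped between groups, with 20 and 34 reads in OE cells and 44 and 28 in vector cells. Beside ISG15 itself, HERC5, its main ligase, measured 5.22 and 5.38 FPKM in OE cells and 3.87 and 3.96 FPKM in vector cells, and UBE2L6, its conjugating enzyme, 33.7 and 33.3 FPKM in OE cells and 28.7 and 29.6 FPKM in vector cells. USP18, which removes ISG15 and also damps the type I receptor, measured 7.96 and 8.83 FPKM in OE cells and 6.63 and 7.01 FPKM in vector cells. None of these 3 passed, with adjusted p of 0.222 for HERC5, 0.219 for UBE2L6 and 0.471 for USP18, although no OE library overlapped a vector library. The PARP and DTX3L genes are ADP-ribosyl transferases and the ubiquitin ligase partner of PARP9. They had 5 of 5 members higher without overlap, against 18.2% over all genes, and a median of 0.26. Within them PARP12 had a log2 difference of 0.27 ± 0.07 and PARP9 one of 0.26 ± 0.07 (adjusted p = 0.322 for PARP12 and 0.387 for PARP9).

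The restriction factors, proteins that block single steps of viral growth, showed smaller differences. All 14 tested were higher, 10 without overlap, against 51.1% and 18.2% over all genes. However, the median was 0.099, and 0.061 without vector replicate 2. SHFL, which blocks ribosomal frameshifting, had the largest difference, with 10.8 and 8.30 FPKM in OE cells and 6.71 and 6.63 FPKM in vector cells (log2 difference 0.45 ± 0.09, adjusted p = 0.141). The RNA editing enzyme ADAR and the kinase EIF2AK2 (PKR) had log2 differences of 0.08 ± 0.05 and 0.12 ± 0.06. The guanylate-binding proteins, which respond mainly to interferon gamma, were scarcely expressed: GBP3 alone was tested, at 2.54 and 2.78 FPKM in OE cells and 2.67 and 2.61 FPKM in vector cells.

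Another 17 effector genes in the table were below the filter. In 7 of them both OE libraries were above both vector libraries, in 2 both were below, and in 8 they overlapped. Of the 17 these are 41.2% above and 11.8% below, against 11.5% in each direction over all 6408 genes below the filter. Like the 17, 5300 of those genes were above 0 in at least 1 of the 4 libraries, and their share was 13.9% in each direction. BST2 (tetherin) had 45 and 46 reads in OE cells and 20 and 29 in vector cells, SAMD9L 267 and 277 in OE cells and 158 and 188 in vector cells, and XAF1 51 and 80 in OE cells and 36 and 32 in vector cells. The 2 in the other direction were GBP2, with 95 and 112 reads in OE cells against 123 and 126 in vector cells, and EPSTI1, with 4 reads or fewer in every library.

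**Figure D3:**
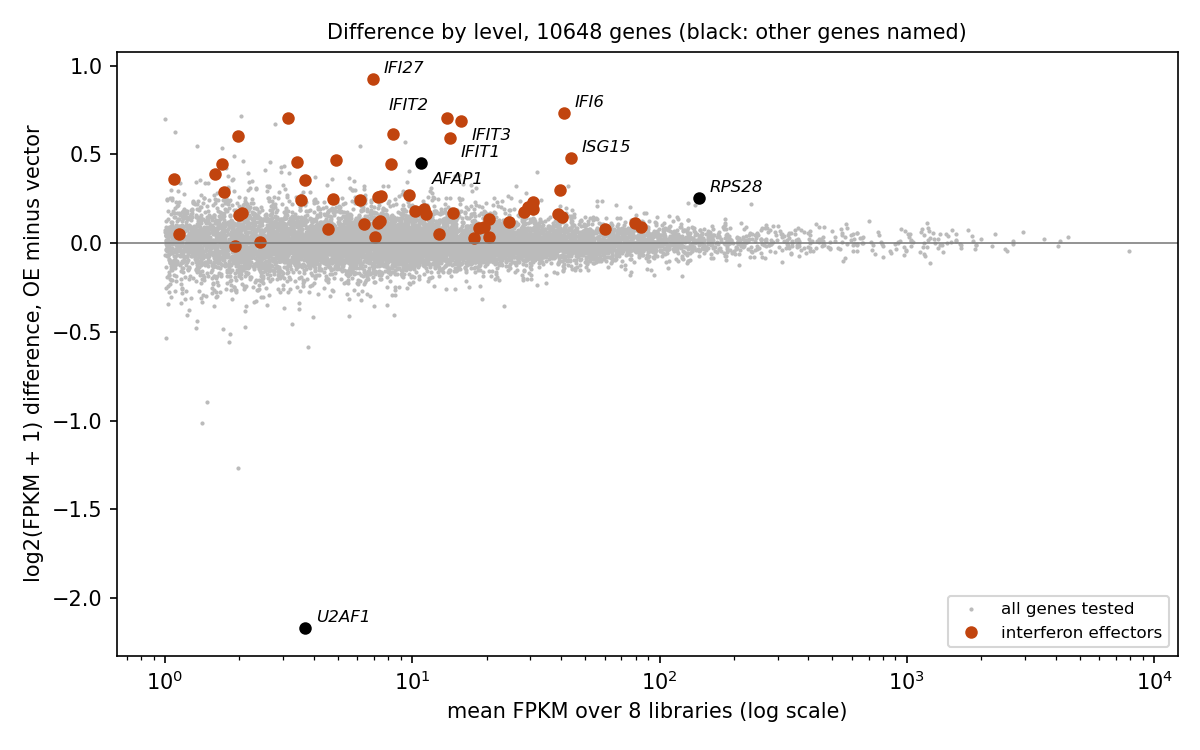
Log2(FPKM + 1) difference, OE minus vector (vertical axis), against the mean FPKM over 8 libraries (horizontal, log scale) for 10648 genes, with the 54 interferon effectors in orange and other named genes in black. Of the 54 effectors, 53 lie above 0, and U2AF1 is the lowest point at -2.17.

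In the order of p among genes higher in OE cells, the effectors, 0.507% of the genes tested, made up 11 of the first 20, 23 of the first 100 and 29 of the first 200. Among genes lower in OE cells they made up 0 of the first 200. The choice of the effector lists with earlier results known applies to these ranks as well. Over the effectors with a promoter in the table, 24 of 42 held the ISRE letters (57.1%), all 24 were higher, and their median was 0.26, against 0.18 for the 18 without them. The letters alone did not go with a shift: of the 203 genes that held them and belong to no effector list, 104 were higher (51.2%), with a median of 0.003.

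Upstream of the effectors the pattern was mixed. Among ligands, IFNL1, a type III interferon, measured 1.89 and 1.58 FPKM in OE cells and 0.42 and 0.95 FPKM in vector cells (log2 difference 0.72 ± 0.13, adjusted p = 0.124). IFNB1 was near the floor at 0.53 and 0.32 FPKM in OE cells and 0.28 and 0.26 FPKM in vector cells, so its place among the tested genes came from other libraries of the series. IFNL2, below the filter, had 35 and 36 reads in OE cells and 6 and 24 in vector cells, and IFNL3 had 29 and 48 in OE cells and 16 and 18 in vector cells. IFNL1, IFNL2 and IFNL3 are related in sequence, and their reads may be shared.

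Of the 14 tested sensors and adaptors, 8 were higher and the median was 0.03, with a range of -0.019 to 0.082 when single libraries were left out. The RNA sensors that are themselves interferon targets were among the higher ones. DDX58, which encodes RIG-I, measured 13.9 and 13.48 FPKM in OE cells and 10.2 and 9.97 FPKM in vector cells (log2 difference 0.41 ± 0.08, adjusted p = 0.136). IFIH1, which encodes MDA5, measured 8.54 and 7.33 FPKM in OE cells and 6.46 and 5.58 FPKM in vector cells (0.35 ± 0.10, adjusted p = 0.375). The adaptor MAVS overlapped between groups (-0.01 ± 0.06), and the kinase TBK1 and its substrate IRF3 had log2 differences of -0.13 ± 0.06 and -0.11 ± 0.05.

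Among the factors that bind interferon-responsive promoters, 10 of 12 were higher, with a median of 0.07. It was 0.045 without OE replicate 1, 0.043 without vector replicate 1 and 0.044 without vector replicate 2. IRF9 measured 30.5 and 28.4 FPKM in OE cells and 22.7 and 24.1 FPKM in vector cells (log2 difference 0.32 ± 0.07, adjusted p = 0.147). STAT2, its partner in that complex, had a log2 difference of 0.10 ± 0.08. Receptors and JAK kinases were not higher as a list, with 3 of 8 above 0 and a median of -0.042 (-0.021 without vector replicate 1); IFNAR1 measured 8.12 and 7.92 FPKM in OE cells and 8.31 and 8.18 FPKM in vector cells. The feedback inhibitors were split, 7 of 14 higher, with USP18 at the top and SOCS3, the brake on STAT3 signalling, at the bottom (-0.16 ± 0.10). No member of these lists passed the test.

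Genes of class I antigen presentation are known targets of the pathway as well. Of 17 tested, 12 were higher, and the median was 0.066, or 0.043 once a trend in GC content and length was removed. Without overlap, 9 were higher and 2 lower, against 18.2% higher and 16.9% lower over all genes. The 3 immunoproteasome subunits were all among the higher genes. PSMB9 measured 15.4 and 17.1 FPKM in OE cells and 12.3 and 13.2 FPKM in vector cells (log2 difference 0.33 ± 0.08, adjusted p = 0.308), PSMB10 had 0.29 ± 0.06 and PSMB8 0.20 ± 0.07. PSME2, a subunit of the proteasome activator PA28, measured 121.9 and 126.9 FPKM in OE cells and 107.7 and 106.3 FPKM in vector cells (0.22 ± 0.05, adjusted p = 0.153). The peptide transporter TAP1 had 0.19 ± 0.05. The class I light chain B2M had 0.04 ± 0.03.

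Chemokines and inflammatory cytokines had 11 of 15 members higher and a median of 0.097. That median rested on single libraries: it was 0.003 without OE replicate 2, 0.173 without OE replicate 1 and 0.055 without vector replicate 2. CCL2, which attracts monocytes, measured 16.2 and 17.01 FPKM in OE cells and 13 and 11.9 FPKM in vector cells (log2 difference 0.39 ± 0.06, adjusted p = 0.0572). CCL5 measured 5.82 and 5.59 FPKM in OE cells and 3.81 and 3.36 FPKM in vector cells (0.55 ± 0.11, adjusted p = 0.141). CXCL8, the neutrophil attractant, measured 14.7 and 16 FPKM in OE cells and 12.5 and 12.8 FPKM in vector cells (0.26 ± 0.05, adjusted p = 0.153). The subunits and feedback genes of NF-kB, which drives such cytokines, had a median of 0.013 and 12 of 20 higher.

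At the targeted locus, AFAP1 measured 13.4 and 13.2 FPKM in OE cells and 9.82 and 9.10 FPKM in vector cells. The groups were well apart, and the log2 difference was 0.45 ± 0.07 with an adjusted p of 0.0542, just outside the threshold. It passed in 4 of 15 alternatives, with adjusted p between 1.58e-07 and 0.406 over them. AFAP1 encodes an adaptor of actin filaments and Src and lies at chr4:7758714-7939926 on the minus strand (GRCh38, GENCODE release 29). AFAP1-AS1 lies at chr4:7754090-7778928 on the plus strand, and the genes share 523 exonic bases, 5.21% of the exonic length of AFAP1. The sources used here do not give whether counting used strand, so reads of the overexpressed RNA and of AFAP1 in those bases cannot be told apart. Among 18 tested genes of the same chromosome band, 10 were higher, with a median of 0.011.

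AXIN2, a scaffold of the complex that degrades beta-catenin and a target of Wnt signalling, measured 3.35 and 3.48 FPKM in OE cells and 2.98 and 3.03 FPKM in vector cells. The groups did not overlap, but the log2 difference of 0.14 ± 0.11 did not pass (adjusted p = 0.885). The other components of that complex were split, 6 of 14 higher with a median of -0.025. The TCF factors and Wnt targets had 11 of 23 higher and a median of -0.029, with the cell surface receptor CD44 at -0.10 ± 0.04 and the cyclin CCND1 at -0.10 ± 0.04 (adjusted p = 0.615 for CD44 and 0.632 for CCND1). Values per gene do not show splicing, which is not analysed here.

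The SR splicing factors named in the series title had a median of -0.002, with 6 of 13 higher. The largest difference by p was SRSF9, at 105.6 and 110.6 FPKM in OE cells and 100.6 and 102.2 FPKM in vector cells (log2 difference 0.09 ± 0.04, adjusted p = 0.658), and SRSF5 had -0.07 ± 0.04. SR kinases and nuclear speckle proteins had 5 of 25 higher and a median of -0.026, led by the kinase CLK4 at -0.20 ± 0.08 (adjusted p = 0.653). The ABC drug transporters had a median of -0.017 with 8 of 22 higher, and NRF2 target genes, which protect A549 cells from oxidants and drugs, a median of 0.008 with 21 of 36 higher.

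Over the 84 lists with at least 5 tested members, 51 had a positive median, 74 lay within 0.05 of 0, 3 were above 0.1 and none below -0.1. The 3 were the OAS, PARP and IFI lists. To set these shifts against replicate error, the median difference between the 2 replicates of each group was taken over the same members. The shift exceeded the larger of those gaps in 29 of 84 lists, 21 higher and 8 lower in OE cells. Of the 74 lists within 0.05 of 0, leaving out a single library moved the median of 71 by over 1.5 times or through 0, and 46 lost their sign. Of the other 10 it moved 4 by over 1.5 times, the restriction factor, chemokine, STAT and IRF, and EMT lists, and none lost its sign.

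**Figure D4:**
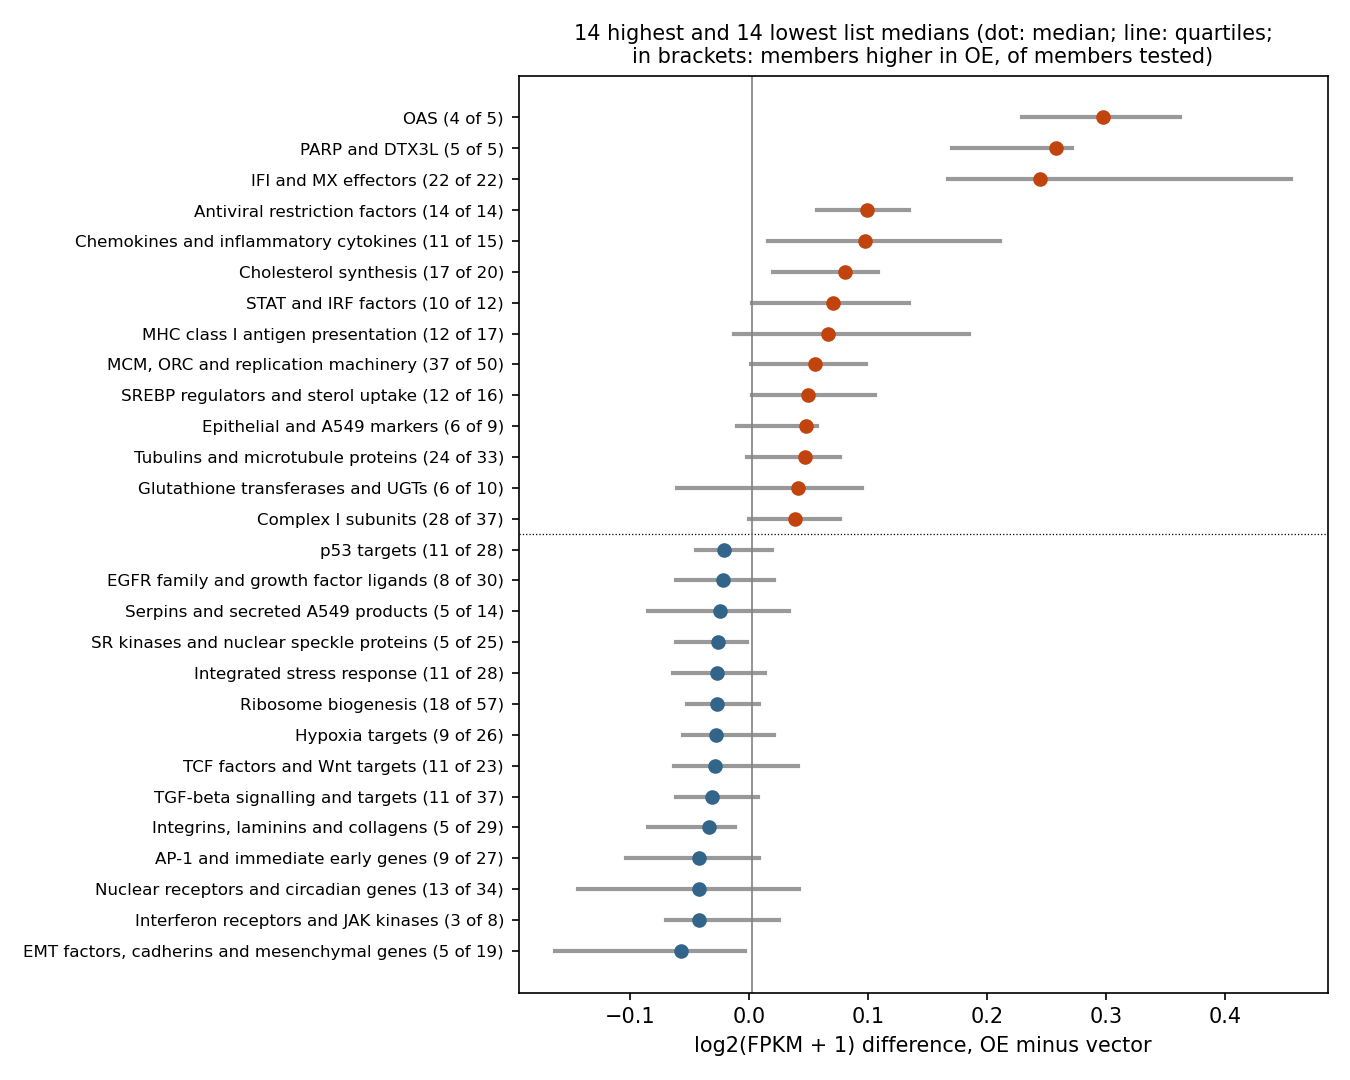
Median (dot) and quartiles (line) of the log2(FPKM + 1) difference, OE minus vector, for the 14 highest and 14 lowest of 84 gene lists, with the members higher in OE cells and the members tested in brackets; the vertical line marks the median of all genes. Interferon lists hold the top 4 places, and the lower end, down to -0.057, is closer to 0 than the upper.

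**Figure D5:**
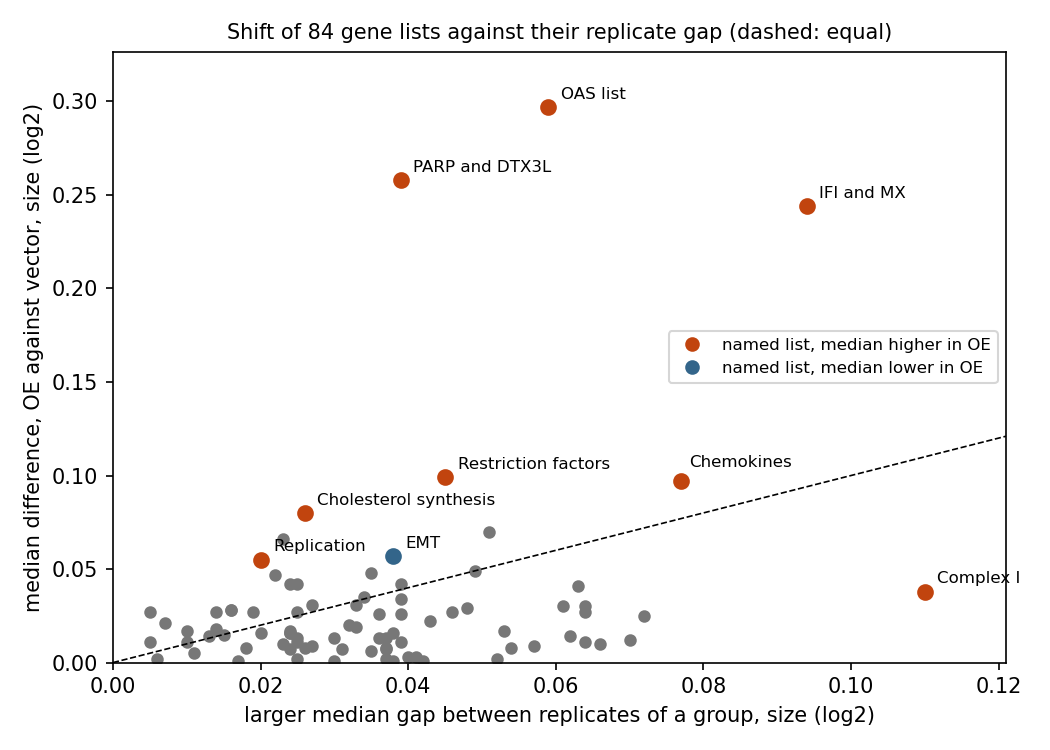
Size of the median shift between OE and vector cells (vertical axis, log2) against the larger median gap between replicates of a group (horizontal axis, log2) for 84 lists, with named lists coloured by direction. Lists above the dashed line moved by more than their replicates differed; cholesterol synthesis and replication lie above it and complex I below it.

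Next after the interferon effectors and the chemokines, cholesterol synthesis had a median of 0.08, with 17 of 20 members higher. Without overlap, 13 were higher and 1 lower, against 18.2% higher and 16.9% lower over all genes. The mean level of the list was 4.49 and 4.48 in OE cells and 4.43 and 4.41 in vector cells on the log2(FPKM + 1) scale. NSDHL, a sterol demethylation enzyme, measured 30.6 and 31.4 FPKM in OE cells and 26.5 and 27.2 FPKM in vector cells (log2 difference 0.20 ± 0.04, adjusted p = 0.198). FDFT1, which makes squalene, had 0.11 ± 0.04. SC5D, a late enzyme of the pathway, was on the other side at -0.17 ± 0.08. The regulators of the pathway had 12 of 16 higher and a median of 0.049, equal to the larger replicate gap of that list; it was 0.028 without OE replicate 1 and 0.076 without vector replicate 2. Members among those with the smallest p were SREBF1, which encodes a transcription factor of lipid synthesis (0.17 ± 0.05), and INSIG1, the sterol sensor partner (0.12 ± 0.05). Fatty acid synthesis had a median of 0.007. No gene of these lists passed.

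The DNA replication machinery had 37 of 50 members higher, 21 of them without overlap and 0 without overlap in the other direction, and a median of 0.055. Over all genes, 18.2% were higher and 16.9% lower without overlap. MCM2 and MCM7, subunits of the replicative helicase, both had a difference near 0.1: MCM7 measured 128.7 and 132.6 FPKM in OE cells and 121.8 and 120.3 FPKM in vector cells. ORC1, of the origin recognition complex, had 0.18 ± 0.07 and CLSPN, a checkpoint adaptor, 0.20 ± 0.07. E2F1, the transcription factor of many of these genes, measured 15.4 and 15.6 FPKM in OE cells and 13.2 and 12.7 FPKM in vector cells (0.24 ± 0.05, adjusted p = 0.176). The E2F letters TTTGGCGC, on either strand, were in 8 of 44 replication promoters (18.2%) and in 1.16% of all promoters, and the median difference was 0.053 both with and without them. The genes of G2 and mitosis had a median of 0.017. Histone genes were higher in 21 of 30, led by H2BC17 at 1.19 and 1.31 FPKM in OE cells and 0.57 and 0.35 FPKM in vector cells, while H4C5 had -0.51 ± 0.19. H2BC17 was near the floor, and its place among the tested genes came from other libraries of the series. Histone genes are near copies of each other, and their counts may depend on how shared reads were assigned.

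Subunits of the respiratory chain and beta subunits of the proteasome were also mostly higher, but differed between replicates by similar or larger amounts. Complex I of the respiratory chain had 28 of 37 members higher and a median of 0.038, and all 11 NDUFB genes were higher with a median of 0.074. Yet the list means of complex I overlapped, at 5.46 and 5.56 in OE cells and 5.45 and 5.49 in vector cells, and the median difference of OE replicate 1 minus OE replicate 2 was -0.11. Proteasome beta subunits were higher in 10 of 10, with a median of 0.06, and median differences of replicate 1 minus replicate 2 of -0.052 in OE cells and -0.073 in vector cells. These include the immunoproteasome genes PSMB8, PSMB9 and PSMB10 given above. The full proteasome list had 26 of 42 higher and a median of 0.013. The small ribosomal subunit proteins had a median of 0.012, with 21 of 32 higher. After RPS28, RPS21 had the smallest p in that list, at 200.2 and 205.8 FPKM in OE cells and 165.6 and 183.4 FPKM in vector cells (0.22 ± 0.05, adjusted p = 0.153).

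On the lower side, genes of epithelial-mesenchymal transition and cadherins had the lowest list median, -0.057, with 5 of 19 higher. The median was -0.099 without vector replicate 1 and -0.024 without vector replicate 2, and it lay between -0.113 and -0.024 over all alternatives. CDH2, the N-cadherin of mesenchymal cells, measured 7.21 and 6.29 FPKM in OE cells and 8.07 and 7.41 FPKM in vector cells (log2 difference -0.18 ± 0.07, adjusted p = 0.671). VIM, the intermediate filament vimentin, measured 1004 and 1023 FPKM in OE cells and 1057 and 1054 FPKM in vector cells (-0.06 ± 0.03, adjusted p = 0.742). Integrins, laminins and collagens had 5 of 29 higher, and none of the 12 tested collagen genes was higher, with a median of -0.05 that was smaller than the vector replicate gap of 0.057.

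TGF-beta signalling and its targets had 11 of 37 higher, 0 without overlap higher and 12 without overlap lower, with a median of -0.031 and a larger replicate gap of 0.033. Over all genes, 18.2% were higher and 16.9% lower without overlap. Leaving out single libraries gave medians of -0.051 to -0.013. ID2, an inhibitor of basic helix-loop-helix factors, measured 95.2 and 98.4 FPKM in OE cells and 108.7 and 111.3 FPKM in vector cells (log2 difference -0.18 ± 0.04, adjusted p = 0.139). PMEPA1, a feedback inhibitor of the pathway, measured 48.0 and 46.8 FPKM in OE cells and 54.3 and 53.4 FPKM in vector cells (-0.18 ± 0.04, adjusted p = 0.153). TGFBI, a matrix protein induced by the pathway, had -0.10 ± 0.03. For ID2, PMEPA1 and TGFBI both OE libraries lay below both vector libraries.

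Immediate early genes, which respond within minutes to growth signals and stress, had 9 of 27 higher and a median of -0.042. Without overlap, 13 were lower and 4 higher, against 16.9% lower and 18.2% higher over all genes. EGR1 measured 3.06 and 3.73 FPKM in OE cells and 5.29 and 3.98 FPKM in vector cells (log2 difference -0.35 ± 0.10, adjusted p = 0.421), and JUND, with 0.14 ± 0.06, was on the other side. Nuclear receptors and circadian genes had the same median, -0.042, or -0.025 without OE replicate 2. Their leading member was BHLHE40, a repressor of the clock, at 78.0 and 76.6 FPKM in OE cells and 87.7 and 87.8 FPKM in vector cells (-0.18 ± 0.04, adjusted p = 0.139). The clock repressors NR1D1 and NR1D2 had -0.20 ± 0.08 and -0.18 ± 0.08. Ribosome biogenesis had 18 of 57 higher and a median of -0.027, beside a replicate gap of 0.014, and -0.01 without vector replicate 2. Chaperones had 10 of 33 higher and a median of -0.016, smaller than their larger replicate gap of 0.038, and the median was 0.003 without vector replicate 2. Among them BAG3 stood at -0.15 ± 0.04 and the constitutive chaperone HSPA8 at -0.11 ± 0.03.

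Among single genes, U2AF1, the small subunit of the factor that recognises the end of introns, had the largest difference in size of all genes tested, and it belongs to the splice site list. It measured 0.82 and 1.82 FPKM in OE cells and 9.46 and 8.93 FPKM in vector cells, and the log2 difference of -2.17 ± 0.41 did not pass (adjusted p = 0.127). It passed in 2 of 14 alternatives. The same gene differed between replicates elsewhere in the series, with 221 and 33 reads in the knockdown libraries and 45 and 40 reads in their controls. U2AF1 has a near-identical copy in the current reference, so its count is uncertain. Of genes outside the lists, CTXN1 measured 2.33 and 2.0 FPKM in OE cells and 3.52 and 3.97 FPKM in vector cells (-0.59 ± 0.10, adjusted p = 0.0588), and ZSWIM1 measured 3.94 and 3.995 FPKM in OE cells and 5.63 and 5.58 FPKM in vector cells (-0.41 ± 0.07, adjusted p = 0.0588). TRABD was the leading uncalled gene on the higher side outside the lists, at 15.1 and 16.3 FPKM in OE cells and 11.8 and 12.6 FPKM in vector cells (0.34 ± 0.06, adjusted p = 0.092).

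Base composition moved slightly with the comparison. Over 10632 genes, the rank correlation of the OE-vector difference with transcript GC content was 0.132, described without a p because all genes share the same libraries. The fifth of genes with the lowest GC had a median difference of -0.008, and the fifth with the highest 0.022. Transcript length correlated with the difference between replicates 1 and 2 at 0.25 in OE cells and 0.213 in vector cells, and with the OE-vector difference at -0.071. These medians are small beside the 0.19 of the interferon effectors, whose median was 0.18 once a trend in GC and length was removed. For lists with medians of a few hundredths, the part of composition and length was tested only by the same removal, after which cholesterol synthesis had 0.077, replication 0.053 and the EMT list -0.06, while antigen presentation had 0.043, against 0.066 before, and histone genes 0.018, against 0.035 before.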

How the data were processed

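RNA from A549 cells was sequenced, per the labels. FPKM values for 8 libraries were deposited by the authors in 1 table. Per the submitters' processing notes, the tools were HTSeq, featureCounts, HISAT2 and R 3.2.0 and the build hg38, with no roles given. The sources used here do not give strand use or annotation. FPKM steps were whole reads (tolerance 0.02) for 17054 of 17056 genes (99.99%); EEF1A1 and FTL were not resolved. The recovered reads give depth and the voom alternative.

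Genes averaging 1 FPKM or more were tested two-sided on log2(FPKM + 1) with limma (version 3.58.1; R version 4.3.3), using lmFit, contrasts.fit and eBayes with trend, with 4 groups in the fit and 4 residual degrees of freedom. P-values were adjusted by Benjamini-Hochberg over all 10648 genes, with a threshold of 0.05. The log2(FPKM + 1) scale understates changes of low genes. An exact permutation of 2 against 2 libraries cannot go below p = 0.33. On simulated data for this comparison (10646 genes), changes of 1.25-fold were recovered for 74% of 50 genes and changes of 1.5-fold for 100%, with 18 unchanged genes called. The simulation used one fixed spread between replicates for all genes, changed only genes above a floor of reads, and held many more true changes than were called here. These shares are therefore not the sensitivity for the real libraries, where changes of that size can be missed.

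Gene lists, read by symbol (91 in all), are described by counts and medians with no set test. Genes were named by this rule: AFAP1 and AXIN2, called genes, the 10 smallest p in each direction among uncalled genes without overlap, the 5 largest differences at a mean of at least 5 FPKM, up to 6 members of each list by p, and any interferon effector. Members and lists were chosen with earlier results of these data known. COL1A2, COL3A1, other cell type marker values and the knockdown values of U2AF1 were added after their values were seen. Promoters came from RefSeq (GRCh38.p14), lengths and GC content (99.8% of genes) from GENCODE release 29. The 15 alternatives for each result covered pseudocounts of 0.1 and 0.5, filters, scalings, a fit of OE and vector alone, a replicate block, robust variance, voom and leaving out each library; a GC and length correction was added after seeing the data. Some genes that the rule names are not reported here.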

Additional observations from a re-analysis of the deposited data

How the results depend on the processing

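The count of called genes was 7. It was 0 without a filter on low genes (17056 genes tested, 1033 at an unadjusted p below 0.05), 11 at a minimum mean of 5 FPKM, 14 with robust variance and 27 with voom on recovered reads. Leaving out each library gave 6 to 12. Of the 22 voom calls that were higher, 14 were interferon effectors. With a replicate block the count was 8, of which 6 were shared; the correlation of the deviations of same-numbered libraries was 0.0622, so the numbers are not taken to pair the samples. IFI6, IFIT2, IFIT3 and ISG15 passed in 14 of 15 alternatives, IFIT1 and IFI27 in 12, and RPS28 in 6. Between 3 and 4 lists had a median above 0.1 under every alternative run. No called gene reversed. Of 85 list medians, 38 kept their sign under all 15 alternatives; the interferon effectors stayed between 0.173 and 0.235. With 2 libraries per group, differences of a few hundredths in log2 rest on the spread between single libraries.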
